A study of Mus musculus with 28 samples.

Results

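The cells described here were picked from single-cell RNA sequencing of 8-week-old mouse long bone by the transcripts of 8 genes. These were chosen as markers of periosteal progenitor-like cells, a label that the transcripts alone do not settle. The 8 selection genes were Prg4, Igfbp6, Clec3b, Mfap5, Cilp, Myoc, Dpt and Tppp3, and a cell was taken when their unique molecular identifiers (UMIs, counts of single captured transcripts) summed to 0.5% or more of all UMIs in that cell. Among 1775 cells with 200 or more detected genes, 103 met the rule, of which 102 belonged to the Prx1-Cre library and a single cell to that of Osx-Cre. The selected cells thus made up 10.3% of 993 Prx1-Cre cells (exact 95% interval 8.45% to 12.3%) and 0.128% of 782 Osx-Cre cells (0.00324% to 0.710%). Each Cre line was sequenced as 1 library, so the difference between the lines has no replicate check, and these intervals, like all intervals on counts below, cover counting error only. Across all 4 single-cell libraries of the study, which include 2 from 16-week-old mice, 6205 cells passed the same limit on detected genes.

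The periosteum is the connective tissue sheath that wraps the outer surface of bone. Its outer layer is fibrous and rich in collagen and small proteoglycans, and its inner, cambial layer holds skeletal stem and progenitor cells that take part in growth in bone width and in fracture repair. Several genes of its fibroblasts, among them those for lubricin, decorin and the surface protein Sca1, are also used by cells of the joint surface, tendon and vessel wall, so a transcript signature alone does not place a cell in the sheath.

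Both 8-week libraries held Ai9+ cells, which carry the red reporter tdTomato, from long bones, with marrow and digested crushed bone pooled before sorting and with CD45+, Ter119+ and CD31+ cells removed. Prx1-Cre is driven by a regulatory sequence of Prrx1 that is active in early limb mesenchyme, and Osx-Cre by the promoter of Sp7, the osteoblast factor osterix. The labels give the 8-week libraries the genotypes PrxCre; Z24fl/fl and OsxCre; Z24fl/fl, where Z24 stands for Zmpste24, the protease that completes lamin A, whereas the study's methods give Prx1-Cre or Osx-Cre with the Ai9 reporter. The 16-week libraries were labelled PrxCre; Z24fl/+ (control) and PrxCre; Z24fl/fl (CKO), and each was pooled from several mice. Bulk RNA-seq and ATAC-seq at 20 weeks covered Prx1-Ai9+ Sca1+ cells of the periosteum (pSSPCs) and Prx1-Ai9+ CD73+ cells of the growth plate (gpSSPCs), each as control and CKO with 3 libraries a group, and the genotype label of these libraries reads PrxCre; Z24fl/fl for controls as well, so that their group rests on the title. Nothing in the labels ties bulk replicates to separate animals, and p-values may therefore measure technical spread.

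The targeted gene was checked in every single-cell library before the labels were used. Zmpste24 stood at 17.4 CPM, the UMIs of a gene scaled to a common total (exact Poisson interval 11.5 to 25.3, 27 UMIs) in the library labelled Prx1-Cre Z24fl/fl and at 43.3 CPM (31.6 to 57.9, 45 UMIs) in the library labelled Osx-Cre Z24fl/fl. It stood at 19.4 CPM (15.1 to 24.5) in the 16-week control and at 3.14 CPM (1.57 to 5.62) in the 16-week CKO. The 8-week levels thus lay within or above the interval of the control and above that of the CKO, against the deletion that their label names, and the selected Prx1-Cre cells themselves held 3 Zmpste24 UMIs. For the genes that drive the Cre lines, Prrx1 was found at 199 CPM (131 to 289) in selected Prx1-Cre cells against 99.4 CPM (83.7 to 117) in the other cells of that library. Among these others it was uneven, at 187 CPM in marrow stromal (BMSC-like) and 11.2 CPM in chondrocyte-like cells. Unselected cells that clustered with the selected ones held 229 CPM. Sp7 had 0 UMIs in selected cells, which allows up to 22.1 CPM (3 UMIs), against 72.6 CPM in the other cells. Zmpste24 in the bulk libraries stood at 0.75, 16.77 and 16.9 CPM in control pSSPC replicates 1 to 3. The CKO pSSPC replicates held 0, 8.578 and 7.713 CPM. The gpSSPC replicates held 4.647, 15.01 and 15.89 CPM in control and 1.088, 8.088 and 7.164 CPM in CKO. Each control library lay above the CKO library of its number. Replicate 1 of both control sorts lay below CKO replicates 2 and 3, so its level alone did not mark it as a control.

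The Prx1-Cre library held 1554098 UMIs and the Osx-Cre library 1040275, with a median of 1043 and 925.5 UMIs per cell. Selected and other Prx1-Cre cells were sequenced to like depth, with medians of 1092.5 and 1035 UMIs and 602 and 603 genes, and with mitochondrial shares of 1.68% and 2.07%. Doublets were neither called nor removed. The libraries shared 4 cell barcodes, none of them in a selected cell.

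Because the 8 genes chose the cells, their levels are given only as a description. The selection genes took a median of 1.48% of a selected cell's UMIs, with quartiles of 0.918% and 2.45% and a range of 0.504% to 12.5%. In the other Prx1-Cre cells, 780 of 891 held no UMI of any selection gene. The cells closest to the threshold carried few transcripts of the set. Just inside it stood cells at 0.504% (5 of 992 UMIs), 0.511% (3 of 587) and 0.535% (3 of 561), and just outside it cells at 0.498% (7 of 1407), 0.493% (3 of 608) and 0.424% (5 of 1179). Within 0.5% to 0.6% there were 7 selected cells and within 0.4% to 0.5% there were 6 other cells. In 82 of 102 selected cells 3 or more of the 8 genes were detected, 14 cells held 2 of them and 6 cells held 1, whereas 7 of the 891 other cells held 3 or more.

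**Figure D1:**
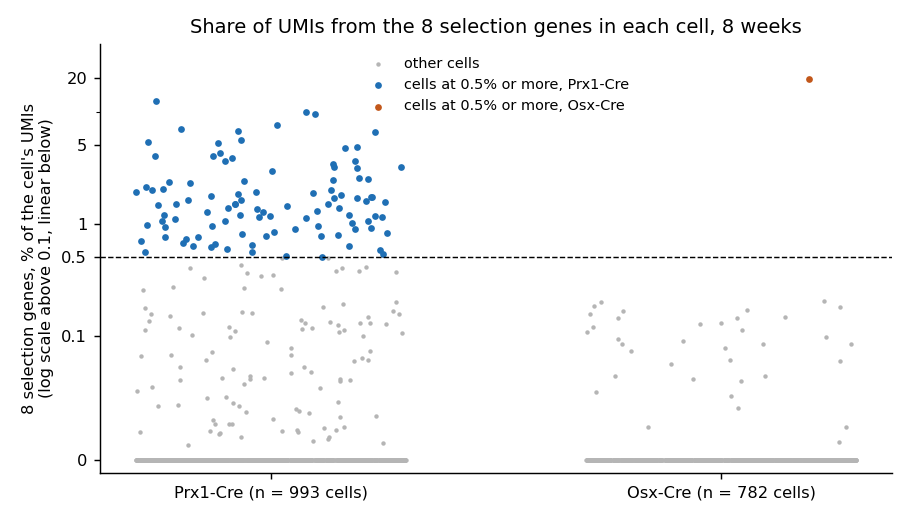
Each point is 1 cell with 200 or more genes, and the vertical axis gives the share of its UMIs taken by the 8 selection genes, in percent on a scale that is linear near 0 and logarithmic above; the dashed line marks the 0.5% threshold. The 102 selected Prx1-Cre cells lie between 0.504% and 12.5%, and the single Osx-Cre cell above the line stands at 19.5%, far from the next Osx-Cre cell at 0.204%.

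Lubricin led the set by UMIs but not by cells. Prg4, which encodes lubricin, the secreted lubricant of joint surfaces, held 2186 UMIs or 58.8% of all selection UMIs in selected cells, yet it was detected in 56 of 102 cells, and a single cell gave 434 of these UMIs. Igfbp6, which encodes a binding protein for insulin-like growth factors, was found in 74 cells (72.5%) at 2816 CPM, and Tppp3, a tubulin-binding protein known from the tendon sheath, in 62 cells at 1485 CPM. Clec3b (tetranectin) was detected in 50 cells, Mfap5, a glycoprotein of elastic microfibrils, in 48, Cilp, a matrix protein of cartilage intermediate layers, in 31, and Myoc (myocilin) and Dpt, a collagen-binding protein, in 30 each. In the other Prx1-Cre cells the 8 genes lay between 7.05 CPM for Myoc and 36.7 CPM for Igfbp6. Prg4 was the most abundant selection gene in 29 selected cells and Igfbp6 in 30.

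The label of periosteal progenitor-like cells was then set against what the cells contained. Clustered together with all other 8-week cells, 101 of the 102 Prx1-Cre cells and the Osx-Cre cell fell into a single cluster of 161 Prx1-Cre and 72 Osx-Cre cells, and 60 cells of that cluster from the Prx1-Cre library did not meet the rule. The selection genes were not kept out of the genes used for clustering, and Prg4, Cilp and Igfbp6 led this cluster. That the selected cells fell together thus follows in part from the rule. Those 60 cells held the selection genes at 1146 CPM, against 27359 CPM in selected cells, 87.6 CPM in the cells called BMSC-like from their markers (Cxcl12+ Lepr+ marrow stroma) and 71.0 CPM in chondrocyte-like cells. The rule itself sets the selected cells apart in these levels. Of genes that the rule did not use, Cytl1 was found in 21 of the selected cells and Ly6a in 59, with 3 cells holding both. The selected cells are named here by the rule and not as 1 cell type.

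Outside the 8 genes, decorin, gelsolin and Col3a1 transcripts were among those higher in selected cells. Among 3716 genes with 50 or more UMIs in the Prx1-Cre library, 220 (5.92%) were at least 2-fold higher in the summed selected cells than in the summed other cells and 564 (15.2%) at least 2-fold lower, with 10 CPM added to both levels before each ratio. Dcn, which encodes decorin, a small proteoglycan that binds collagen fibrils, stood at 22822 CPM (22026 to 23640) in selected cells and was detected in 97 of 102, against 1729 CPM (1661 to 1799) in the other cells. Gsn (gelsolin, which severs actin filaments) reached 12815 CPM in 96 cells against 503 CPM. Col3a1, which encodes the fibrillar collagen of loose connective tissue, reached 2375 CPM in 73 cells against 259 CPM. The 60 cells of the same cluster that did not meet the rule held Dcn at 7749 CPM and Gsn at 3359 CPM, between selected and all other cells, but Col3a1 at 2774 CPM, Aspn at 1479 CPM (985 in selected cells) and S100a4 at 390 CPM (316 in selected cells), so these 3 genes were not lower there than in the selected cells. These are contrasts of cells within 1 library with no replicate, and no test was made.

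**Figure D2:**
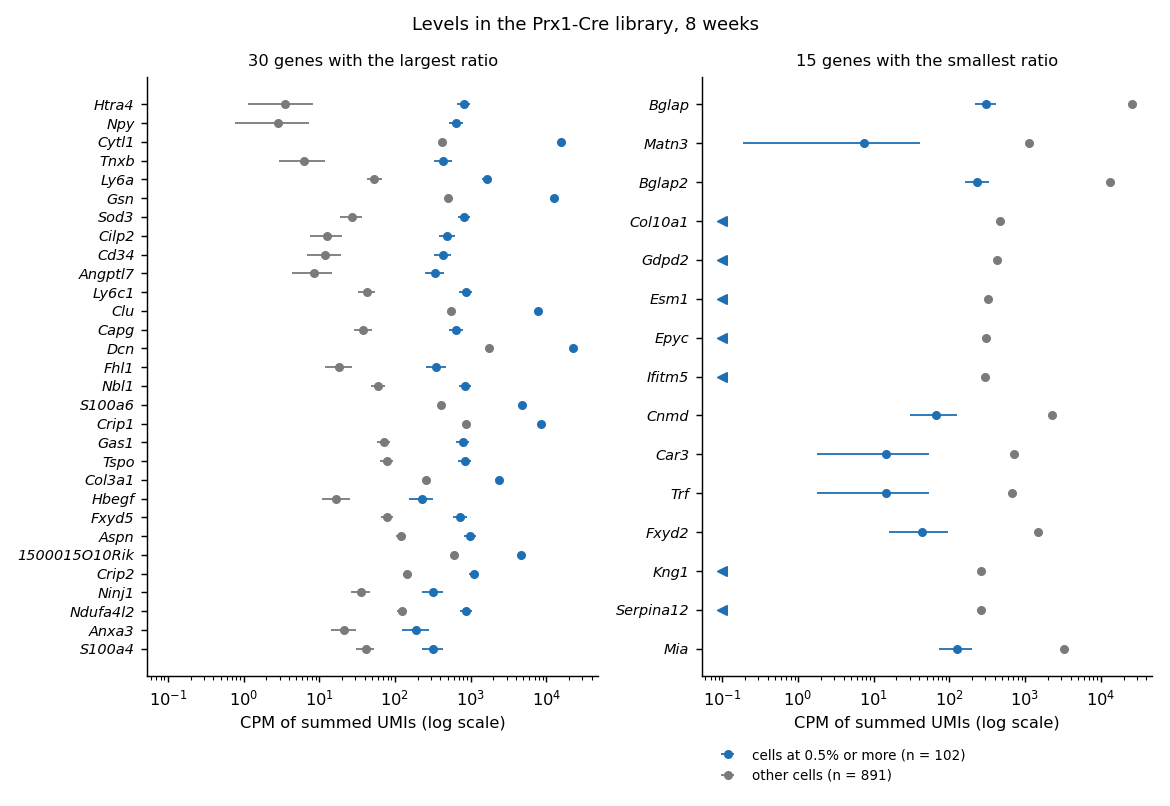
Level of the 30 non-selection genes with the largest and the 15 with the smallest ratio, as CPM of summed UMIs on a log axis, in 102 selected (members) and 891 other Prx1-Cre cells; bars are exact Poisson 95% intervals and triangles at the left edge mark 0 UMIs. The upper 30 genes run from Htra4, at 816 against 3.53 CPM, to S100a4, at 316 against 40.9 CPM, and the lower 15 include Bglap, at 302 against 25871 CPM.

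The 30 genes with the largest ratios included Ly6a, Cd34 and Ly6c1, whose products lie on the cell surface, beside Gas1, Fxyd5, Ninj1 and Hbegf, which also encode membrane proteins. Ly6a encodes Sca1, the protein on which the study sorted periosteal cells, and it stood at 1640 CPM (1432 to 1870) in selected cells against 53.6 CPM (42.2 to 67.1) in the others, a 25.9-fold ratio. At least 1 Ly6a UMI was present in 59 of 102 selected cells (57.8%, 47.7% to 67.6%) and in 35 of 891 other cells (3.93%). As background for free RNA, the BMSC-like cells gave 6 of 558 (1.08%) at a median of 892 UMIs. With every cell thinned to 500 UMIs the shares were 46.1% in selected and 2.47% in other cells. Cd34, a sialomucin of vessels and stromal progenitors, was found in 36 selected cells (35.3%) against 1.46% of the others, and Ly6c1, a relative of Ly6a, in 47 cells at 860 CPM against 43.0 CPM. Related members of the Ly6 family can share reads, so the split between Ly6a and Ly6c1 is uncertain. All 3 genes were also present in the 12 endothelial-like cells of the library, Ly6a at 1015 CPM, Cd34 at 571 CPM and Ly6c1 at 2030 CPM.

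Several other leading genes encode secreted proteins. Cytl1, a secreted cytokine-like protein of cartilage, stood at 15845 CPM against 424 CPM, but in 21 selected cells. Clu (clusterin, an extracellular chaperone) was found in 39 selected cells (38.2%) at 7720 CPM. It was found in a larger share of the other cells, 421 of 891 (47.25%), at 553 CPM. Its ratio was 13.7, but 4.60 with cells thinned to 500 UMIs. Tnxb (tenascin X, which organizes collagen) reached 434 against 6.35 CPM, Sod3 (extracellular superoxide dismutase) 824 against 26.8 CPM and Cilp2, a relative of Cilp, 493 against 12.7 CPM. Aspn (asporin, a small proteoglycan) reached 985 against 119 CPM. Htra4, a secreted serine protease, was 61.1-fold higher at 816 CPM (671 to 983) against 3.53 CPM, in 17 cells, but 16.4-fold without the 25 cells in which Prg4 made up 50% or more of the selection UMIs and 35.9-fold with cells thinned to 500 UMIs. Npy (neuropeptide Y) was 51.3-fold higher, from 7 cells, and 77.3- and 23.3-fold under these settings, so the order at the top depended on the setting, and Angptl7, an angiopoietin-like secreted protein, was found in 10 cells, 6 of which also held Npy. Large ratios thus included genes of few cells, whereas Crip1, S100a6, Dcn and Gsn were each found in 93 to 99 of the 102 cells.

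Other leading genes act inside the cell. Crip1, a LIM-domain protein, was detected in 99 selected cells at 8588 CPM against 866 CPM, and S100a6, a calcium-binding protein, in 93 cells at 4816 CPM against 405 CPM. Capg, which caps actin filaments, reached 640 against 38.1 CPM, Crip2 1118 against 146 CPM, Fhl1 353 against 18.3 CPM and S100a4 316 against 40.9 CPM. The 16 pericyte-like cells of the library held Crip1 at 16165 CPM, above the selected cells. Crip2 and Aspn (1515 CPM each) and S100a4 (379 CPM) also had higher values there, but their counting error over these 16 cells was not compared. S100a6, Capg and Fhl1 were lower there than in the selected cells. Of 11 mechanotransduction genes compared, 2 were at least 2-fold higher (Itgb5 and Ctgf), 3 lower (Cnn2, Cyr61 and Itga1) and 6 between, beside 5.92% higher and 15.2% lower over all genes. Of 12 genes of the nuclear lamina, the p53 response and cell cycle inhibition, 2 were higher, 6 lower and 4 between, with a median of -0.61. Lmna, which encodes the substrate of Zmpste24, reached 500 CPM against 141 CPM and Cdkn1a 684 against 336 CPM, and the lower genes included Cdkn1c, Cdkn2c and Gadd45b.

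Among the 15 genes lowest in selected cells were genes of osteoblasts, growth plate cartilage and marrow stroma. Bglap, which encodes osteocalcin of mature osteoblasts, stood at 302 CPM (216 to 409, 41 UMIs) in selected cells against 25871 CPM in the others, and Bglap2 at 235 against 13388 CPM; these near-identical genes can share reads. Col10a1, the collagen of hypertrophic cartilage, had no UMI against 473 CPM, which makes it at least 21.4-fold lower, and Gdpd2, Esm1, Epyc, Ifitm5, Kng1 and Serpina12 were at 0 as well, at least 19.3-, 14.6-, 13.7-, 13.3-, 12.1- and 11.7-fold lower. In the same library Gdpd2, Esm1, Kng1 and Serpina12 stood at 1085, 828, 678 and 638 CPM in BMSC-like cells, as did Trf (transferrin) at 1717 CPM against 14.7 CPM in selected cells. Matn3, a cartilage matrix protein, had 1 UMI against 1120 CPM, and Cnmd (chondromodulin, an inhibitor of vessel growth) stood at 66.2 against 2273 CPM. Of the genes that define the classes of the study, Acan stood at 162 against 1106 CPM, Kitl at 29.4 against 229 CPM, Cxcl12 at 647 against 8599 CPM, Acta2 at 7.35 against 130 CPM and Col1a1 at 1448 against 9760 CPM. Sox9, the master regulator of cartilage, was 177 against 347 CPM, a ratio of 0.522. Nt5e, which encodes CD73, stood at 88.2 CPM (45.6 to 154) against 55.0 CPM (43.5 to 68.7), and these intervals overlap.

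Markers of the other bone and marrow cell types were mostly lower. None of the 10 chondrocyte-like, 8 BMSC-like or 8 OB-like markers that could be compared was 2-fold higher, and 9, 8 and 8 of them were 2-fold lower. The summed level was 1654 against 20380 CPM for the chondrocyte-like list, 1287 against 16393 CPM for the BMSC-like list and 2890 against 55356 CPM for the osteoblast list. All 7 lymphoid markers, the leukocyte gene Ptprc, the endothelial genes Cdh5, Egfl7, Cldn5, Emcn and Kdr and the mural cell genes Myh11, Notch3, Mcam and Higd1b were at 0 UMIs. Of the remaining markers of these lists, Plvap had 6 UMIs in 6 selected cells (44.1 CPM against 26.8), Pecam1 4 UMIs (29.4 against 64.9 CPM), Rgs5 10 UMIs in 3 cells (73.5 against 74.8 CPM), and Acta2 and Tagln 1 UMI each. The tenocyte list summed to 1132 against 578 CPM, with Thbs4 4.15-fold higher, Fmod (1.52-fold) and Col22a1 within 2-fold and Mkx at 0. Fmod stood at 720.5 CPM in selected cells but at 1093 CPM in chondrocyte-like cells. Thbs4 stood at 169 CPM in selected cells, against 401 CPM in the 60 cells of their cluster that did not meet the rule. Of the 9 markers each listed for articular and synovial lining and for adventitial fibroblasts, 3 each passed the count limit, 2 of them in each list only through the selected cells, so no count over them is read. The lining list summed to 1743 against 135 CPM and was led by Htra4, with Erg at 0, and the adventitial list summed to 2412 against 109 CPM and was led by Ly6c1. Of the adventitial markers, Ly6c1 and Anxa3 were higher still in the 12 endothelial-like cells, Anxa3 at 634 against 191 CPM. Cd34 rested there on 9 UMIs, at 571 CPM (261 to 1084) against 426 CPM (324 to 551) in selected cells, and these intervals overlap. Pi16, a marker of adventitial fibroblasts below the count limit, had 35 UMIs in 10 selected cells and 1 UMI in the others. The part that cells of the joint lining, tendon or vessel wall have in the selected set was not tested.

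Gene groups are given by their counts. A gene that reached 50 UMIs only with the UMIs of the selected cells was more likely to come out higher there, so the counts of higher genes in the following groups cover genes with 50 or more UMIs in the other cells alone, of which 172 of 3471 were at least 2-fold higher (4.96%), and the counts of lower genes can be read against 15.2%. Of 14 such matricellular and adhesive glycoproteins, 4 were higher, and 4 genes of the list were lower. The higher genes included Ecm1 (1507 against 229 CPM), Fn1, which encodes fibronectin (3720 against 1097 CPM), and Abi3bp, while Tnc (tenascin C) stood at 14.7 against 411 CPM. Another 5 of the list, Tnxb, Cilp2, Thbs4, Sparcl1 and Smoc2, were higher but reached the limit only through the selected cells. Of 16 matrix proteases and inhibitors, 5 were higher, with 4 lower in the list and with Htra4 and Adamts5 left out on the same ground. They included the serine protease Htra1 at 1162 against 237 CPM, the metalloprotease inhibitor Timp2 at 963 against 288 CPM and the gelatinase Mmp2 at 360 against 138 CPM. Of 10 small leucine-rich proteoglycans, 3 were higher (Dcn, Aspn and Ogn) and 1 was lower (Epyc). Of 19 collagens, Col3a1 alone was 2-fold higher and 10 were lower, and of 11 elastic fibre genes Fbn1 was higher and 6 were lower.

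None of the genes listed for the marrow niche and for the bone, cartilage and fat lineages was 2-fold higher. These lists do not hold every such gene. Cytl1 (36.6-fold) and 1500015O10Rik (7.65-fold), which also encode proteins of cartilage, were among the leading higher genes. None of the 15 marrow niche factors was higher and 14 were lower (median log2 ratio -2.90). None of the 14 osteogenic, 18 chondrogenic or 8 adipogenic genes was higher, with 13, 13 and 6 lower. Of 7 genes of the insulin-like growth factor system, Htra1, which cleaves binding proteins, and Igf1 (382 against 145 CPM) were higher, and 3 were lower, among them Igfbp4 at 331 against 1478 CPM. Of 7 Wnt modulators, Wif1, a secreted Wnt inhibitor, was higher, and 4 were lower, among them the Wnt enhancer Rspo3. Of 12 genes of the TGF-beta and BMP system that reached 50 UMIs in the other cells alone, Tgfbi was higher and 6 were lower. All 8 proliferation genes that could be compared were lower, and Mki67 and Top2a were at 0 UMIs. Of 18 immediate early genes, which rise when tissue is dissociated, 14 lay within 2-fold, with Klf4 higher and 3 lower.

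Surface genes used to isolate skeletal progenitors did not move together. Of 10 with 50 or more UMIs in the other cells alone, 4 were at least 2-fold higher, namely Ly6a, Cd9, Cd81 and Pdgfra, and 4 were lower, namely Vcam1, Lepr, Cd200 and Pdgfrb. Lepr, the leptin receptor of marrow stroma, stood at 36.8 against 312 CPM and Vcam1 at 80.9 against 666 CPM. Pdgfra rested on 17 UMIs, and with cells thinned to 500 UMIs it was found in 2.94% of selected and 3.03% of other cells. Thy1, which encodes CD90, was detected in 10 selected cells (9.80%) and in 0.898% of the others. From a list of genes that earlier work on periosteum has used, 4 of 8 were higher on the same count (Dcn, Col3a1, Aspn and the cathepsin Ctsk) and 3 lower (Cxcl12, Grem1 and Acta2). Postn, which encodes periostin, named after the periosteum, stood at 66.2 CPM (30.3 to 126) against 55.7 CPM (44.1 to 69.4), and Gli1 and Mx1 had no UMI in selected cells. In the 60 cells of the same cluster that did not meet the rule, Postn stood at 722 CPM, from 15 cells.

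The selected cells were not uniform, and Prg4 separated them. This split was chosen after the values had been seen, and the numbers are descriptive. In 25 cells Prg4 made up 50% or more of the selection UMIs (Prg4-rich, median 1643 UMIs), in 31 it was present at a lower share (Prg4-minor, 950) and in 46 it was absent (Prg4-free, 1067.5). Cytl1 divided the Prg4-rich cells again without intermediates: among all 102 cells, 16 held 20 or more Cytl1 UMIs, up to 320 in a cell, another 5 held 1 to 4, none held 5 to 19 and 81 held none. Of the 25 Prg4-rich cells, 15 were of the first kind and 10 had no Cytl1 UMI. All 16 cells with 20 or more Cytl1 UMIs held Prg4 and 14 held the cartilage collagen Col2a1, while 1 held Ly6a and none Clec3b. Without the 25 Prg4-rich cells, the share of selected cells with a Ly6a UMI was 67.5%. Outside the selected set, 9 Prx1-Cre cells also reached 20 Cytl1 UMIs.

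**Figure D3:**
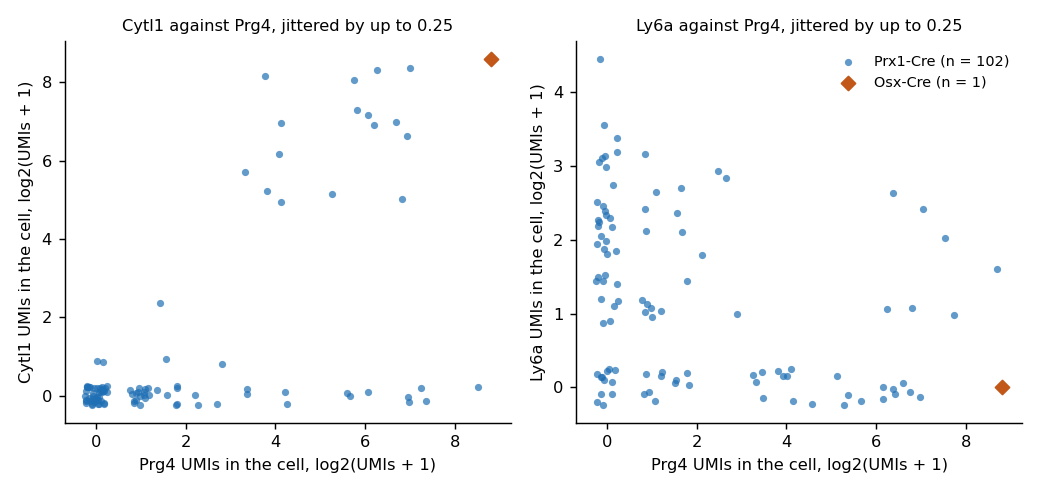
Each point is 1 selected cell, placed by its log2(UMIs + 1) of Prg4 on the horizontal axis and of Cytl1 (left) or Ly6a (right) on the vertical axis, with a small random shift so that equal values stay visible; the diamond is the Osx-Cre cell. Cells high in Cytl1 form a separate cloud at high Prg4, with no cell between 4 and 20 Cytl1 UMIs, and most cells with Ly6a lie at low or no Prg4.

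Cells rich in Prg4 and Cytl1 carried some further cartilage matrix genes and not others. In the 15 cells, Prg4 stood at 30268 CPM and Cytl1 at 69941 CPM. 1500015O10Rik, also called Ecrg4, a secreted protein of articular cartilage, was detected in all 15, and Clu at 21996 CPM in 14 of them. Comp (cartilage oligomeric matrix protein) was present in 14 at 4612 CPM, Chad (chondroadherin) in 13 at 6039 CPM and Col2a1 in 13 at 3221 CPM, below the 23746 CPM of Col2a1 in chondrocyte-like cells. All 102 selected cells together held 1 UMI of Matn3 and none of Epyc and Col10a1, genes that stood at 2940, 788 and 1220 CPM in chondrocyte-like cells. Cilp was found in 12 of the 15 cells at 8711 CPM. Of the other selection genes Igfbp6, Clec3b and Mfap5 had no UMI in any of the 15 cells. The share of Prg4 that defines Prg4-rich cells limits the other selection genes in them. Differences in those genes between the groups therefore follow in part from the split. Ly6a, which is not a selection gene, was found in 1 of the 15 cells.

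The 10 Prg4-rich cells without Cytl1 carried other genes. Prg4 reached 63448 CPM, the highest of all groups, and Fn1 stood at 10162 CPM in all 10 cells against 952 CPM in the 15 Cytl1 cells. Htra4 was present in 7 of them at 4739 CPM and Hbegf, an EGF-family growth factor, in 5 at 685 CPM. Rgcc, a cell cycle regulator named here after its values were seen, was detected in all 10 at 3423 CPM. Col2a1 stood at 52.7 CPM, and Cilp, Clec3b and Cd34 had no UMI. Ly6a was found in 6 of the 10 cells at 948 CPM and Col3a1 in 6 at 1211 CPM.

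The 46 Prg4-free cells could meet the rule only through the other selection genes, so their levels of those genes follow in part from the rule. These 46 cells held most of the Igfbp6, Clec3b, Mfap5 and Ly6a UMIs, but little Cilp (304 CPM). Igfbp6 was present in 44 of them at 5232 CPM, Clec3b in 34 at 2028 CPM, Mfap5 in 34 at 2433 CPM and Tppp3 in 31 at 1825 CPM. Ly6a was found in 34 cells at 2981 CPM, Cd34 in 28 at 831 CPM, Aspn in 26 at 1724 CPM and Col3a1 in 41 at 4258 CPM. Sfrp4, a secreted Wnt modulator, stood at 2413 CPM in 19 cells and Serpinf1 (pigment epithelium-derived factor) at 2190 CPM in 32. Neither had a UMI in a Prg4-rich cell. Across all selected cells, Ly6a was present in 42 of the 50 cells with Clec3b and in 33 of the 36 with Cd34, but in 3 of the 21 with Cytl1.

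The 31 Prg4-minor cells had features of both. In 16 of them Prg4 rested on 1 UMI and in 6 on 5 or more. Igfbp6 was present in 26 at 2774 CPM and Ly6a in 18 at 1412 CPM. Cilp stood at 5350 CPM in 14 and Clu at 10130 CPM in 15. Myoc, a secreted protein of the olfactomedin family, was highest here, at 1932 CPM in 16 cells, and Npy at 2080 CPM came from 6 of these cells with Angptl7 at 892 CPM in 7. Of 475 genes with 30 or more UMIs in selected cells, 51 were at least 2-fold higher in Prg4-rich than in Prg4-free cells and 62 at least 2-fold lower.

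**Figure D4:**
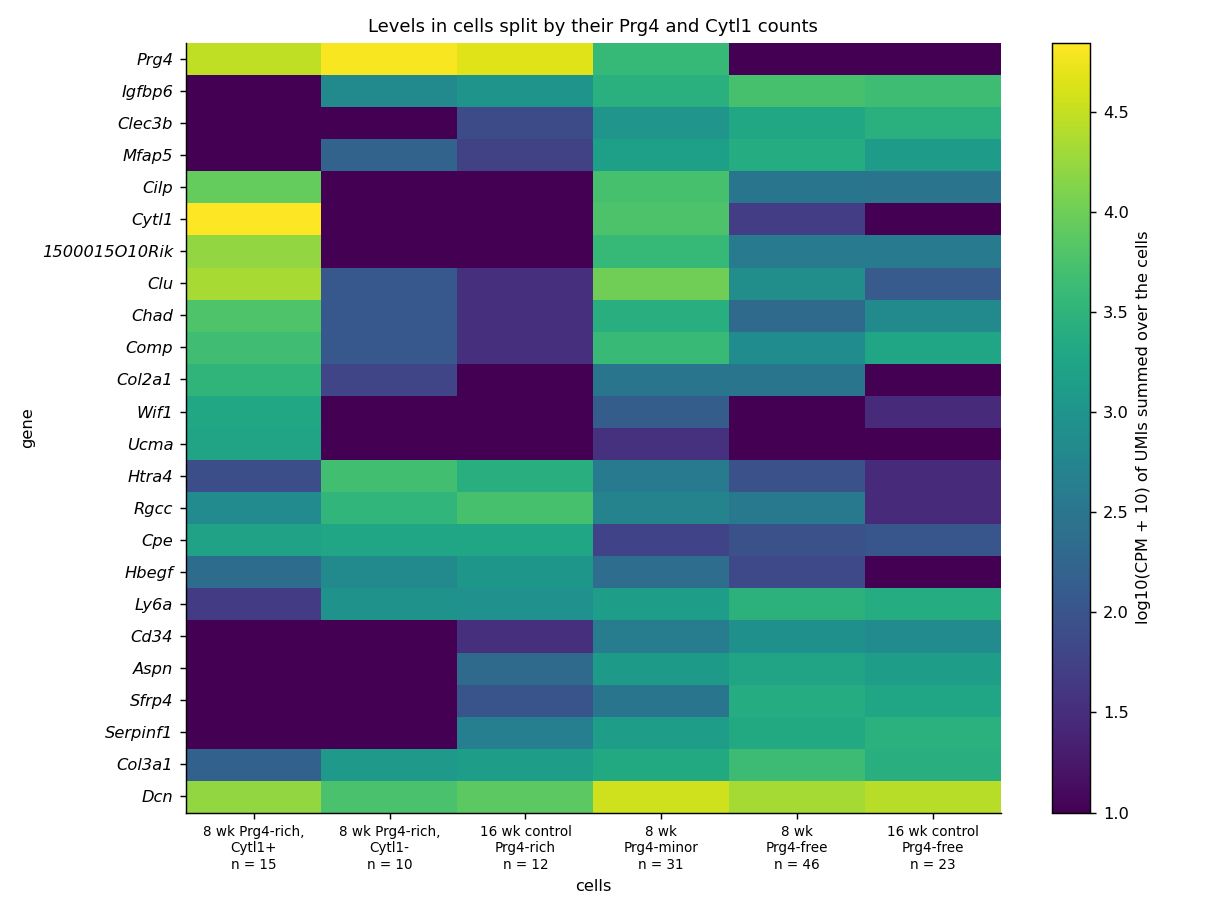
Level of 24 genes, as log10(CPM + 10) of summed UMIs, in 6 groups of selected cells that were split by Prg4 and Cytl1 after the values were seen, from the 8-week Prx1-Cre and the 16-week control library. Cytl1, Clu, Chad and Col2a1 are high in the 15 Prg4-rich cells with Cytl1, Htra4 and Rgcc in the 10 without it and in the 12 Prg4-rich cells at 16 weeks, and Clec3b, Cd34 and Sfrp4 in the Prg4-free cells of both ages, whereas Ly6a is also present in the Prg4-rich cells at 16 weeks (10 of 12 cells).

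The single selected Osx-Cre cell was rich in both Prg4 and Cytl1 and held Chad and Col2a1, but had no UMI of 1500015O10Rik, which was found in all 15 Prx1-Cre cells of that kind. It held 2356 UMIs and 753 genes, of which Prg4 took 447 UMIs and Cytl1 387. Myoc had 9 UMIs, Cilp 3, Dcn 11 and Gsn 12, while Ly6a, Col3a1 and Htra4 had none. Of the cartilage genes, Chad had 14 UMIs, Col2a1 7, Comp 3 and Clu 2. Of the other 781 Osx-Cre cells, 745 held no selection UMI and the highest share was 0.204%. Ly6a was detected in 5 of these 781 cells (0.640%). The Osx-Cre library was shallower by median depth, and whether the low share of selected cells comes from the Cre line, the animals or the single preparation cannot be told apart.

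The same rule was applied to the 16-week libraries, which had no part in choosing the 8-week cells. In the control it took 47 of 2068 cells (2.27%, interval 1.68% to 3.01%), and in the CKO 20 of 2362 (0.847%, interval 0.518% to 1.31%), again with 1 library a group and without a test. Because the cells were chosen there by the same 8 genes, the other genes are a description here as well. In the control, 25 of the 30 leading genes were at least 2-fold higher in selected cells, as were 5.01% of all 7082 genes compared, and all 15 of the lowest genes were at least 2-fold lower, as were 19.9% of all genes. In the CKO the counts were 29 of 30 and 14 of 15, beside 9.7% and 39.6% of 6896 genes. Of the leading genes counted in the CKO, Cytl1, Clu, 1500015O10Rik and Ndufa4l2 rested on its 1 Prg4-rich cell, which gave 169 of 170, 213 of 224, 95 of 98 and 17 of 18 of their UMIs, and Htra4 and Angptl7 rested on 1 UMI each. Ly6a was detected in 38 of 47 selected control cells (80.9%) and in 12 of 20 selected CKO cells (60.0%). The selected control cells were deeper, with a median of 2405 against 1588.5 UMIs. With cells thinned to 500 UMIs the shares were alike, at 57.45% (27 of 47) in control and 57.89% (11 of 19) in CKO.

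The leading genes not 2-fold higher in the control were Npy, Cytl1, Clu, 1500015O10Rik and Ndufa4l2. Cytl1 had no UMI in any of its 47 selected cells, although 21 control cells outside the set held 20 or more Cytl1 UMIs. In its 12 Prg4-rich cells, Htra4 stood at 2575 CPM in 11, Rgcc at 5354 CPM in 11 and Fn1 at 11273 CPM in 12, whereas Clu was at 22.6 CPM and Col2a1 at 0. In its 23 Prg4-free cells, Clec3b stood at 2782 CPM in 18, Cd34 at 710 CPM in 14 and Ly6a at 2407 CPM in 17. Ly6a was however present in 10 of the 12 Prg4-rich control cells too, at 858 CPM, and with cells thinned to 500 UMIs in 6 of 12 against 12 of 23, so the difference in Ly6a between Prg4-rich and Prg4-free cells at 8 weeks (7 of 25 Prg4-rich cells) was not seen in the share of cells at 16 weeks. The Prg4-rich cells with Cytl1 numbered 15 in the Prx1-Cre and 1 in the Osx-Cre library at 8 weeks, 0 in the 16-week control and 1 in the CKO.

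Bulk libraries of sorted cells, which the rule did not use, gave the test of the leading genes. They addressed which of these transcripts were higher in Sca1+ cells of the periosteum than in CD73+ cells of the growth plate. Ly6a and Nt5e encode the sorting markers and are no finding here, and in sorted bulk RNA fewer cells of a type and less RNA per cell cannot be told apart. The libraries held 1333260 to 5315709 counts. In every group replicates 2 and 3 were nearly alike: divided by its degrees of freedom, the chi-square of their counts was 1.59 to 1.92, against 53.2 to 71.4 for pairs with replicate 1, and they were summed to 1 sample. In the fit without pairing, edgeR's quasi-likelihood test called 0 of 13173 genes higher (0%) and 0 lower (0%) in control pSSPCs at an adjusted p of 0.05. At an unadjusted p of 0.05 it gave 528 higher and 287 lower, 16 of the leading 30 among the higher. DESeq2 on the same samples called 163 of 8127 genes higher (2.01%), among them 9 of the 29 leading genes it tested.

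Samples of the same number deviated together (r of 0.520 to 0.537), so the fit with the replicate number as a block is given beside it. With the block, 312 genes were higher (2.37%) and 164 lower (1.24%) in pSSPCs. Of the leading 30, 17 rose, or 16 without Ly6a, and 2 fell. Their median log2 fold change was 1.14, against -0.04 over all genes tested. Of the 8 selection genes, 6 rose and Prg4 and Cilp did not pass. With 1 control sample left out of the blocked fit, the numbers of leading and of all genes called higher varied with that sample. A lone sample then stood for its group, so these counts are not given.

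Igfbp6 had 10013, 4913 and 5003 CPM in control pSSPC replicates 1 to 3 and 2052, 1537 and 1424 CPM in gpSSPCs. Its log2 fold change was 2.08 ± 0.19 (SE) with an adjusted p of 9.4e-09 by edgeR with the block and of 0.354 without it, and over the other alternatives without a block the adjusted p lay between 0.00301 and 1. Every pSSPC library lay above every gpSSPC library. Gsn had 40342, 24914 and 24267 CPM against 7473, 8017 and 7418 CPM, a log2 fold change of 2.11 ± 0.18. Cd34 had 618, 668 and 692 CPM against 117, 176 and 165 CPM, a log2 fold change of 2.24 ± 0.29. For both, the groups did not overlap, as for 17 of the leading 30 and 12.3% of all genes tested. Dcn (1.62), Aspn (1.81), Tnxb (3.78), Ly6c1 (1.91), Anxa3 (1.95) and Tspo (1.62) were also called higher with the block on the log2 scale. Clec3b (1.84), Mfap5 (2.07), Myoc (2.43), Dpt (1.64) and Tppp3 (1.85) rose among the selection genes, as did Prrx1 (2.80), the gene of the Cre driver, with the block.

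Prg4 and Cytl1 took another course. Prg4 had 2082, 8906 and 8967 CPM in pSSPCs and 1211, 16892 and 18827 CPM in gpSSPCs, with a log2 fold change of -0.06 ± 0.30 and an adjusted p of 0.951 by edgeR with the block. Both groups thus held abundant Prg4, and their libraries overlapped. Cytl1 had 1712, 7666 and 6788 CPM against 3328, 22803 and 23456 CPM and fell by 1.33 on the log2 scale with the block, and 1500015O10Rik fell by 1.60. Without the block neither was called, with adjusted p-values by edgeR of 0.968 and 0.883, except that Cytl1 passed in the unblocked edgeR fit with no filter beyond 1 count (adjusted p of 0.0274). Htra4 had 143, 163 and 156 CPM against 87.5, 147 and 151 CPM and was not called. The control gpSSPCs also held more cartilage RNA, with Col2a1 at 24970, 15388 and 15146 CPM against 4076, 2386 and 2045 CPM in pSSPCs. The part of growth plate or articular chondrocytes in these levels was not tested.

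**Figure D5:**
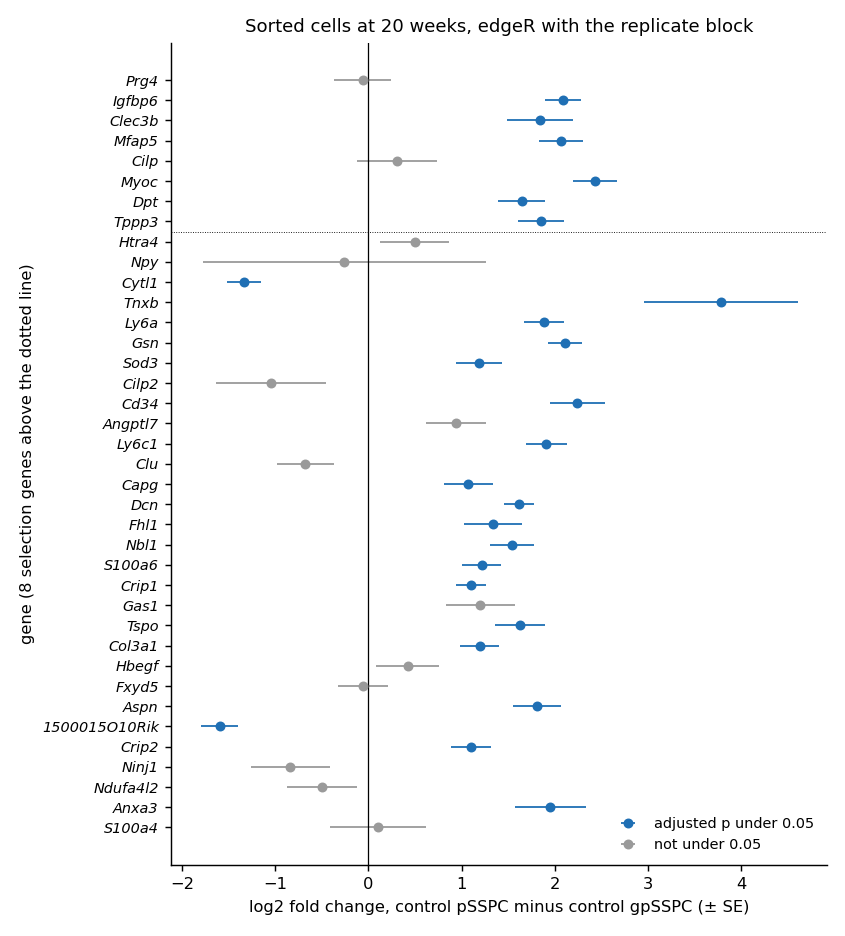
Log2 fold change between control pSSPCs and control gpSSPCs for the 8 selection genes and the 30 leading genes, from the edgeR fit with the replicate block; bars are ± 1 SE and filled points passed an adjusted p of 0.05. Of the selection genes 6 lie to the right and pass, with Prg4 and Cilp near 0, and of the leading genes 17 pass to the right and Cytl1 and 1500015O10Rik to the left.

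The split by Prg4 divided these bulk results as well. Of the 13 leading genes that were at least 2-fold higher in Prg4-free than in Prg4-rich cells, 10 were called higher in control pSSPCs with the block, among them the sorting marker Ly6a, beside 2.37% of all genes, and the others were Npy, Angptl7 and S100a4. Of the 9 leading genes higher in Prg4-rich cells, none was called higher, 2 were called lower and 7 were not called. Of the 8 between, 7 were called higher and Gas1 was not. Pi16, a marker of adventitial fibroblasts, had 442, 633 and 608 CPM in pSSPCs and 116, 171 and 139 CPM in gpSSPCs, and Thy1 47.3, 163 and 162 CPM against 8.45, 42.2 and 34.0 CPM, and both were called higher with the block.

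Open chromatin at the gene starts was compared in the ATAC-seq peaks of the 6 control libraries, called per library, as a description without a test. The pSSPC libraries held 59209 to 79724 peaks and the gpSSPC libraries 88095 to 98549, from 12250713 to 40668538 tags over both sorts. RefSeq promoters of the files' mouse build (GRCm38, 250 bases before to 50 after the start) were matched for 4 selection genes and 20 leading genes. A promoter peak in all 3 pSSPC libraries and in no gpSSPC library was present at 141 of 27025 genes (0.522%), among them Cilp and Aspn. At Cilp the fold enrichment of the peak was 3.29, 3.34 and 4.32 in pSSPCs, and at Aspn 3.49, 5.56 and 4.02. Cytl1 showed the opposite, with a peak in all 3 gpSSPC libraries (2.53, 2.92 and 3.29) and in no pSSPC library, as did 664 genes in all. Every pSSPC peak list was shorter than every gpSSPC list, so a weak peak could more easily be missing in pSSPCs. For Aspn and Cytl1 the side with a peak was the side with more RNA in the blocked fit, while Cilp RNA did not pass.

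Most of the other promoters were open in both sorts. A peak in all 3 pSSPC libraries was present at 15 of the 20 leading genes, beside 41.8% of all genes, and a peak in all 3 gpSSPC libraries at 15 of 20, beside 45.2% of all genes. Gsn had fold enrichments of 12.1, 15.3 and 10.8 in pSSPCs and 7.69, 7.61 and 7.06 in gpSSPCs, and Cd34 11.1, 14.5 and 9.64 against 12.2, 9.15 and 6.89. Dpt had a peak in all 6 libraries, Igfbp6 in 1 pSSPC library, Tnxb in 2 pSSPC libraries and Myoc in none. The promoters of the 3 genes with a peak in all 3 libraries of 1 sort and in none of the other are shown because they carry this contrast, 5′ to 3′ on the plus strand as RefSeq gives them in GRCm38.p6, with TATAAA on either strand (TTTATA on the reverse) in capitals. This motif occurs in 13.6% of all 32851 RefSeq promoters, and it was found at 2 places for Aspn and not in the windows of Cilp and Cytl1.
Cilp, chr9:65264930-65265229: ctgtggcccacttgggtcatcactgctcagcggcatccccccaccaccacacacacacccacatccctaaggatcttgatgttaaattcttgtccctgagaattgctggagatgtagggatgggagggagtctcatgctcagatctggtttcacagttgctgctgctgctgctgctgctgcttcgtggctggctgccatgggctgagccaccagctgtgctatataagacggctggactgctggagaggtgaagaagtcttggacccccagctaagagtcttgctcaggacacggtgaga
Aspn, chr13:49544193-49544492: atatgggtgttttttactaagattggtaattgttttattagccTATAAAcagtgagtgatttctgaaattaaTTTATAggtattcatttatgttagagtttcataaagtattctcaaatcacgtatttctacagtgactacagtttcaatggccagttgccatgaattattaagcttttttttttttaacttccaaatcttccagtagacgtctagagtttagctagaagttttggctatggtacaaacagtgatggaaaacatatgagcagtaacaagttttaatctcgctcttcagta
Cytl1, chr5:37735269-37735568: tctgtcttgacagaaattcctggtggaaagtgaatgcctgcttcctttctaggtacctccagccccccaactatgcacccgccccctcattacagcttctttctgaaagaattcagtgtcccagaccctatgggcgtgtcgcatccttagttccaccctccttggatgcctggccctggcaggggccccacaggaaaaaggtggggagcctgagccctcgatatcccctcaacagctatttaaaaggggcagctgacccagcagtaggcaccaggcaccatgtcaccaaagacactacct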

How the data were processed

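The 4 single-cell libraries hold UMI counts per gene and cell, which the authors deposited as filtered matrices made with Cell Ranger (version 3.1.0 in the file header) on mm10. Cells with fewer than 200 genes were left out here, and no doublets were called. Selected and other cells were summed, scaled to CPM and compared as ratios after adding 10 CPM, for genes with 50 or more UMIs, with exact Poisson and Clopper-Pearson intervals at 95%. Cells were clustered with Seurat 5.3.0 (2000 variable genes, 20 components, resolution 0.14). Gene lists, selection rule and the split of cells were chosen with earlier results of these data known. Named genes were the selection genes, the genes that define the study's classes and sorts, the Cre drivers and target, the 30 largest and 15 smallest ratios, and within each list the most abundant and most shifted members. Any other gene named, such as Rgcc, Abi3bp, Mmp2, Postn, Thy1 and Pdgfrb, was chosen after its values were seen.

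Bulk counts, deposited by the authors after alignment with STAR and counting with HTSeq per the labels, were tested with edgeR 4.0.16 (quasi-likelihood, TMM, all 4 groups in 1 fit; DESeq2 1.42.0 as an alternative; R 4.3.3) after Benjamini-Hochberg adjustment. Of 53801 rows, 53620 had a symbol. Same-numbered samples correlated at 0.537, 0.525 and 0.520 after group means were removed, each best with its own number; a shared origin of the numbers is not stated in the labels. ATAC peaks were deposited as MACS2 (2.2.7.1) lists with −log10 q-values and fold enrichment over background, called by the authors per library after Bowtie2 alignment to mm10 at a q-value of 0.05. Peak lists of CKO libraries were not used. The scripts were checked on simulated data.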

Additional observations from a re-analysis of the deposited data

How the results depend on the processing

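Apart from the fits with 1 control sample left out, 56 values under alternative settings were set against the main results. Many settings count more than once here, as they were run for 2 results each. A share of cells was held to its counting interval, and a count of genes to within 1.5 times its main value. By this rule 40 of the 56 values stayed in place, 16 moved further and 0 reversed. The Prx1-Cre share of selected cells was 7.25% at a 1% threshold and 8.46% to 11.98% under the others. The share of selected cells with Ly6a was 46.1% when every cell was thinned to 500 UMIs. The numbers of genes 2-fold higher and lower were 127 and 239 with 50 CPM added, 636 and 1373 among genes with 10 or more UMIs, and 74 and 168 among those with 200 or more. The 30 leading genes stayed at least 2-fold higher under 5 other settings, which rescaled the counts or left out Prg4-rich or chondrocyte-like cells. They had been picked for the largest ratios in the same cells, so this is no independent check. Of the 15 lowest genes 10 stayed 2-fold lower when chondrocyte-like cells were left out of the comparison, without Matn3, Epyc, Cnmd, Fxyd2 and Mia. In the bulk test, the counts of leading and of all genes called higher in pSSPCs were 0 and 0 without the block, 17 and 312 with the replicate block, 12 and 300 with each library as a sample, 6 and 50 with no filter beyond 1 count, and 9 and 163 with DESeq2. As shares of all genes tested, these were 0%, 2.37%, 2.43%, 0.24% and 2.01%. DESeq2 tested 29 of the 30 leading genes. Leaving out 1 control sample gave 0 to 0 without the block, and with it 12, 12, 15 and 19 leading and 147, 70, 133 and 698 of all genes (without pSSPC replicate 1, gpSSPC replicate 1, the summed gpSSPC and the summed pSSPC replicates); a lone sample was then assumed to vary like the other groups. The cause of these shifts was not tested. Alternatives that left out Prg4-rich cells or selection genes from totals, and the blocked fits with a sample left out, were added after the data were seen.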
